A study of Mus musculus with 31 samples.

Results

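Mouse embryonic fibroblasts that had received retroviruses for 4 transcription factors (4F: Oct4, encoded by Pou5f1, with Sox2, Klf4 and c-Myc) were compared late in their conversion, on days 10 and 12 after infection, with the same kind of culture on day 8. The comparison takes 4 of the 31 arrays of the series, chosen by title: the day 8 arrays of biological replicates 1 and 2, and single arrays of day 10 and day 12. The side comparisons use fibroblasts given a GFP virus, with 2 arrays on day 8 and 1 on day 12, and fibroblasts given Oct4, Sox2 and Klf4 without c-Myc (3F), with 1 array each on days 8 and 12. All cells grew in the same serum-containing medium, per the labels, which name no strain, no animal numbers and no sort or selection. RNA therefore came from mixed cultures, in which fewer cells of a type and less RNA per cell cannot be told apart.

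Forced expression of these factors turns a minority of fibroblasts into induced pluripotent stem cells. The known sequence runs from loss of fibroblast identity, through gain of epithelial adhesion and keratin genes, to activation of the endogenous pluripotency network. Myc proteins drive ribosome production, and retroviral vectors are silenced as cells reach pluripotency.

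Signals are log2 values, 1 per probe set, and 21789 probe sets with a single gene symbol were tested. A probe set was called where limma gave a Benjamini-Hochberg adjusted p under 0.05 and both later arrays lay beyond both day 8 arrays on the same side. The spread came from the 12 groups with 2 arrays, and the single arrays were assumed to vary like these, so a p-value weighs a difference against array-to-array spread and against nothing wider. The arrays of days 10 and 12 belong to a set of 7 without a replicate number, which also holds the GFP day 12 and all 3F arrays. That set was labelled from 300 ng of RNA, like replicate 2, whereas replicate 1 was labelled from 120 ng. Within the 4F arm, day and array set cannot be told apart.

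Across probe sets, which are not independent replicates, the day 8 arrays correlated with each other at r = 0.976, the lowest of the 12 replicated groups. Day 8 replicate 2 correlated at 0.985 with day 10, whereas replicate 1 reached 0.967 with day 10 and 0.993 with replicate 1 of day 6. Days 10 and 12 correlated at 0.995. Day 8 replicate 2 was thus nearer than replicate 1 to the later arrays, and the main counts below are also given without replicate 1.

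Between day 8 and days 10 to 12, 1664 of 21789 probe sets were called (7.64%), with 832 higher (3.82%) and 832 lower (3.82%). The median difference of the called probe sets was 0.68 for those that rose and -0.67 for those that fell. At an unadjusted p under 0.05 there were 4364. By the size of the gap alone, with no test, both later arrays lay at least 1 log2 unit above both day 8 arrays in 44 (0.202%) and below them in 33 (0.151%). With the replicate number as a block, which takes up the offset between the replicate 1 and replicate 2 sets, 3133 were called. The count fell to 668 without day 8 replicate 1, to 1009 without day 10 and to 406 without day 12. A limma fit to the 4 arrays alone, with their own wide spread, called none, with 3663 at an unadjusted p under 0.05 and a smallest adjusted p of 0.0685. The calls above take their spread from the other groups. Day 8 replicate 2 lay nearer to the later arrays than replicate 1 in 675 of the probe sets that rose (81.1%) and in 527 of those that fell (63.3%). Of all probe sets, 48.0% had replicate 2 above replicate 1. Day 12 lay further from day 8 than day 10 did in 654 of those that rose (78.6%) and in 522 of those that fell (62.7%). Of all probe sets, 49.2% had day 12 above day 10.

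**Figure D1:**
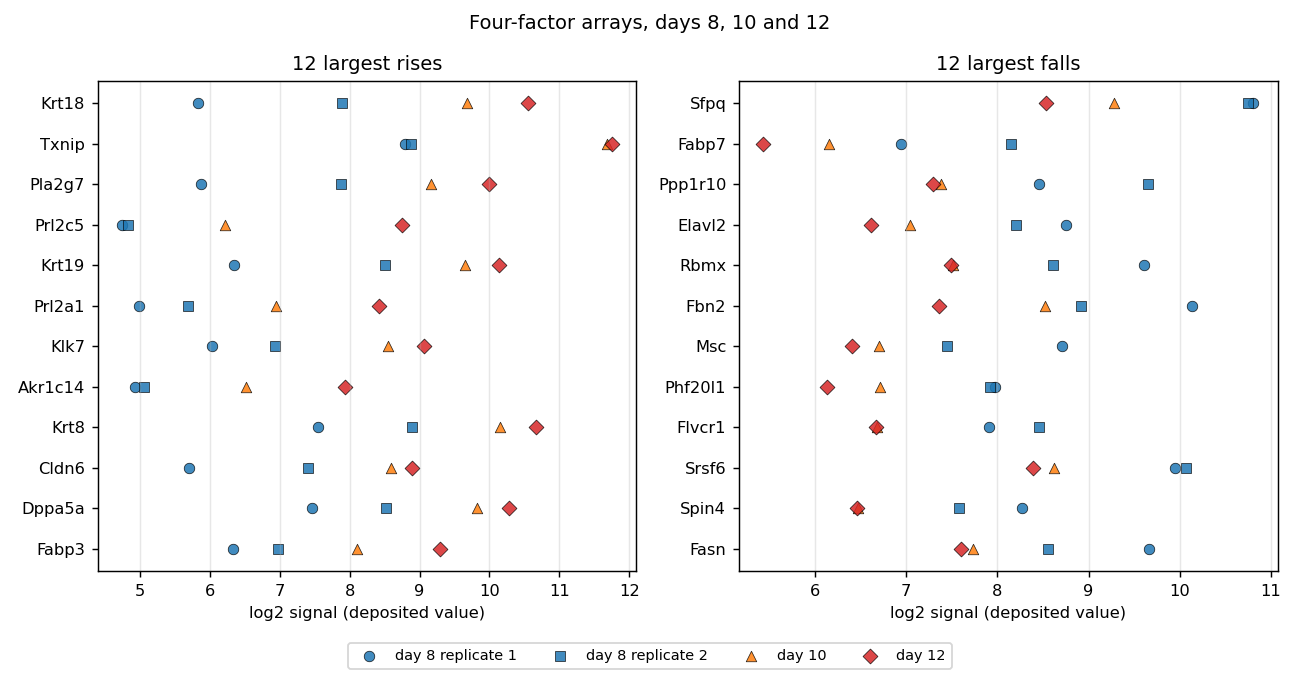
Log2 signal (x axis) of the 12 genes with the largest called rise and the 12 with the largest called fall, 1 row per gene, with 1 point for each of the 4 four-factor arrays. Provisional and small RNA gene names were left out of the ranking. Krt18 reads 5.83 and 7.89 on day 8 and 9.68 and 10.55 later, while for Txnip both day 8 points and both later points nearly coincide.

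The GFP arm gave the change over time and array set in fibroblasts that received no factor. It has 1 later array where 4F has 2, so its standard errors are larger (0.23 against 0.19 for Txnip). Its count of calls is therefore not a like measure. From GFP day 8 to day 12, 8 probe sets were called (0.0367%), all 8 higher (0.0367%) and none lower (0.0%), and 1036 had an unadjusted p under 0.05. They included the cornea and connective tissue proteoglycan Kera (2.44) and the carboxypeptidase-like Cpxm2 (2.01), neither of which was called in 4F. The 4F change from day 8 to day 12, taken over the GFP change between the same days, cancels a shift common to the unnumbered set. For this difference 133 probe sets were called (0.61%), 98 higher (0.45%) and 35 lower (0.161%), with 2178 at an unadjusted p under 0.05, and 357 with the replicate block. Of the 133, 97 had also risen and 30 had also fallen in the 4F comparison. Both comparisons use the same 4F arrays of days 8 and 12, so this overlap is in part built in. For any gene named below, a call in both is not separate support. From GFP day 8 to day 12, 89 probe sets were called without GFP day 8 replicate 1. For the difference between the arms the count was 459 without 4F day 8 replicate 2 and 15 among probe sets with a mean signal of at least 7.

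The delivered factors were read first, as a check of the labels. Pou5f1 stood at 8.37 and 9.58 on day 8, 9.93 on day 10 and 9.84 on day 12, against 5.26 to 5.55 in the GFP arrays of days 8 and 12. All 4 arrays thus lay far above GFP, and the difference from day 8 to the later days (0.90 ± 0.40, log2 difference ± SE) did not pass. Sox2 read 6.79, 8.21, 9.25 and 9.48 in the same order, with no overlap between the days. GFP arrays read 5.31 to 5.45. It rose by 1.86 ± 0.33 (adjusted p = 0.00351). Klf4 (6.71, 7.55, 7.56 and 7.51) lay in all 4 arrays below the GFP arrays, which read 8.15 and 7.96 on day 8 and 7.69 on day 12. Myc (6.81, 8.09, 7.19 and 7.52) overlapped the GFP arrays (7.15, 9.72 and 6.58). Pou5f1 and Sox2 thus set 4F above GFP, whereas Klf4 and Myc did not. On day 1 after infection Pou5f1 read 6.30 and 6.25 in 4F, against 5.655 and 5.23 in the day 0 fibroblasts. Sox2 read 5.74 and 6.13 on day 1, against 5.66 and 5.98 on day 0, so its later signal does not check delivery. Neither Klf4 nor Myc passed between the days, and their differences of 0.40 and -0.10 change sign with single arrays: Klf4 stood at -0.016 without day 8 replicate 1, and Myc at 0.54 without day 8 replicate 2 and 0.071 without day 10. Whether a probe set reads the viral transcript, the endogenous one or both was not tested.

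Among the gene lists, the epithelial one had the highest share of risen members. Of 45 measured members of the epithelial list, 25 rose, against 3.82% of all probe sets, and none fell, with a median difference of 0.64, against -0.0045 over all 19938 genes. Both later arrays lay above both day 8 arrays for 40 of the 45, against 24.4% of all probe sets. Krt18, which pairs with Krt8 in the intermediate filaments of simple epithelia, read 5.83 and 7.89 on day 8, 9.68 on day 10 and 10.55 on day 12. The order of days holds without overlap, although the day 8 arrays lie further apart than the day 10 array lies from replicate 2. The rise of 3.26 ± 0.41 (adjusted p = 0.000354), a 9.56-fold difference, was the largest of all genes named here. Krt8 went from 7.55 and 8.89 to 10.15 and 10.66, a rise of 2.19 ± 0.37 (adjusted p = 0.00258). Krt19, another simple-epithelium keratin, rose by 2.47 ± 0.52 but did not pass without day 8 replicate 1 (1.39) or without day 12 (2.23). In the day 0 fibroblasts Krt19 read 8.60 and 8.89, above both day 8 arrays (6.34 and 8.51). The day 10 and day 12 arrays read 9.66 and 10.13. Of 52 measured keratins, a family chosen after its values were seen, 5 were called, with a median difference of 0.08.

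Junction and protease-inhibitor genes rose as Krt18 and Krt8 did. The tight junction gene Cldn6, known from early embryonic epithelia, read 5.70 and 7.41, then 8.59 and 8.89, a rise of 2.19 ± 0.34. F11r, the junctional adhesion molecule A, rose by 1.87. The membrane protease inhibitors Spint2 and Spint1 rose by 1.63 and 1.43, and the adherens junction cadherin Cdh1 by 1.34. Cdh1 did not pass without day 8 replicate 1 (0.57, adjusted p = 0.52), without day 10 or without day 12. Other rises took in the splicing regulator Esrp1 (1.03) and the clathrin adaptor subunit Ap1m2 (1.10). The proteases St14 (1.12) and Prss8 (1.15) and the epithelial transcription factor Elf3 (1.38) also rose. Epcam is an instructive exception, chosen after its values were seen: it read 6.67 and 9.68 on day 8 and 9.94 and 9.89 later, so that replicate 2 had almost the later level and the difference of 1.74 did not pass (adjusted p = 0.18). The count of risen epithelial genes was 13 without day 8 replicate 1, 20 without day 10 and 10 without day 12. Against the GFP change, 6 epithelial genes were called higher, among them Krt18 (3.92 ± 0.71, adjusted p = 0.0199) and Krt7 (2.40 ± 0.37).

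Fibroblast genes gave few calls. None of 35 mesenchymal regulators rose or fell, and their median difference was -0.01. With the replicate block 4 were called. Of 39 matrix genes, the collagen-binding glycoprotein Sparc rose (10.92 and 11.17 to 11.74 and 11.95) and the proteoglycan Vcan fell (9.05 and 7.76 to 7.16 and 7.14), against 3.82% of all probe sets in each direction, and the other 37 did not pass. Neither was called without day 8 replicate 1 (Sparc 0.68, adjusted p = 0.12, and Vcan -0.61, adjusted p = 0.44) or without day 12, and Vcan was not called without day 10. GFP arrays of days 8 and 12 read 13.34 to 13.49 for Sparc and 10.89 to 11.28 for Vcan, above all 4 arrays of 4F for both genes. Vim, the mesenchymal intermediate filament, read 12.48, 12.70, 12.85 and 12.91 in 4F. None of 28 contractile and serum response genes passed (1 with the block), nor any of 23 skeletal muscle, 16 adipocyte or 16 chondrocyte and bone genes.

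Pluripotency genes rose in part. Of 45 measured members 12 rose, against 3.82% of all probe sets, and none fell, with a median difference of 0.33. Nanog, the homeodomain factor of the core network, read 7.15 and 8.48 on day 8, 9.11 on day 10 and 9.48 on day 12. GFP arrays lay between 5.95 and 6.00, so Nanog was already well above the control on day 8. Its rise was 1.48 ± 0.32 (adjusted p = 0.0106), and it did not pass without day 8 replicate 1 (0.81, adjusted p = 0.12). Dppa5a, an RNA-binding protein of embryonic stem cells, read 7.45, 8.51, 9.82 and 10.29. This is a step of at least 1.30 from the nearer day 8 array, and the rise was 2.07 ± 0.35 (adjusted p = 0.00256).

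Genes that act with DNA methylation and chromatin in stem and germ cells stood among the rest. Dnmt3l, the cofactor of the de novo DNA methyltransferases, read 5.89 and 7.48 and then 8.28 and 8.75, a rise of 1.83 ± 0.31. The chromatin-bound factor Utf1 rose by 1.45, the F-box gene Fbxo15 by 0.84, the microRNA-processing regulator Lin28a by 0.78 and the Polycomb protein Phc1 by 0.73. Otx2, a factor of the primed pluripotent state, read 5.45 and 6.06, then 6.94 and 6.56, and was higher on day 10 than on day 12. Without day 8 replicate 1 the count of risen pluripotency genes was 4, without day 10 it was 8 and without day 12 it was 3. None was called against the GFP change. The 3F arm, whose day 8 and day 12 arrays both lie in the unnumbered set, read 6.65 and 9.32 for Nanog and 6.56 and 9.73 for Dppa5a. These single arrays were not tested.

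**Figure D2:**
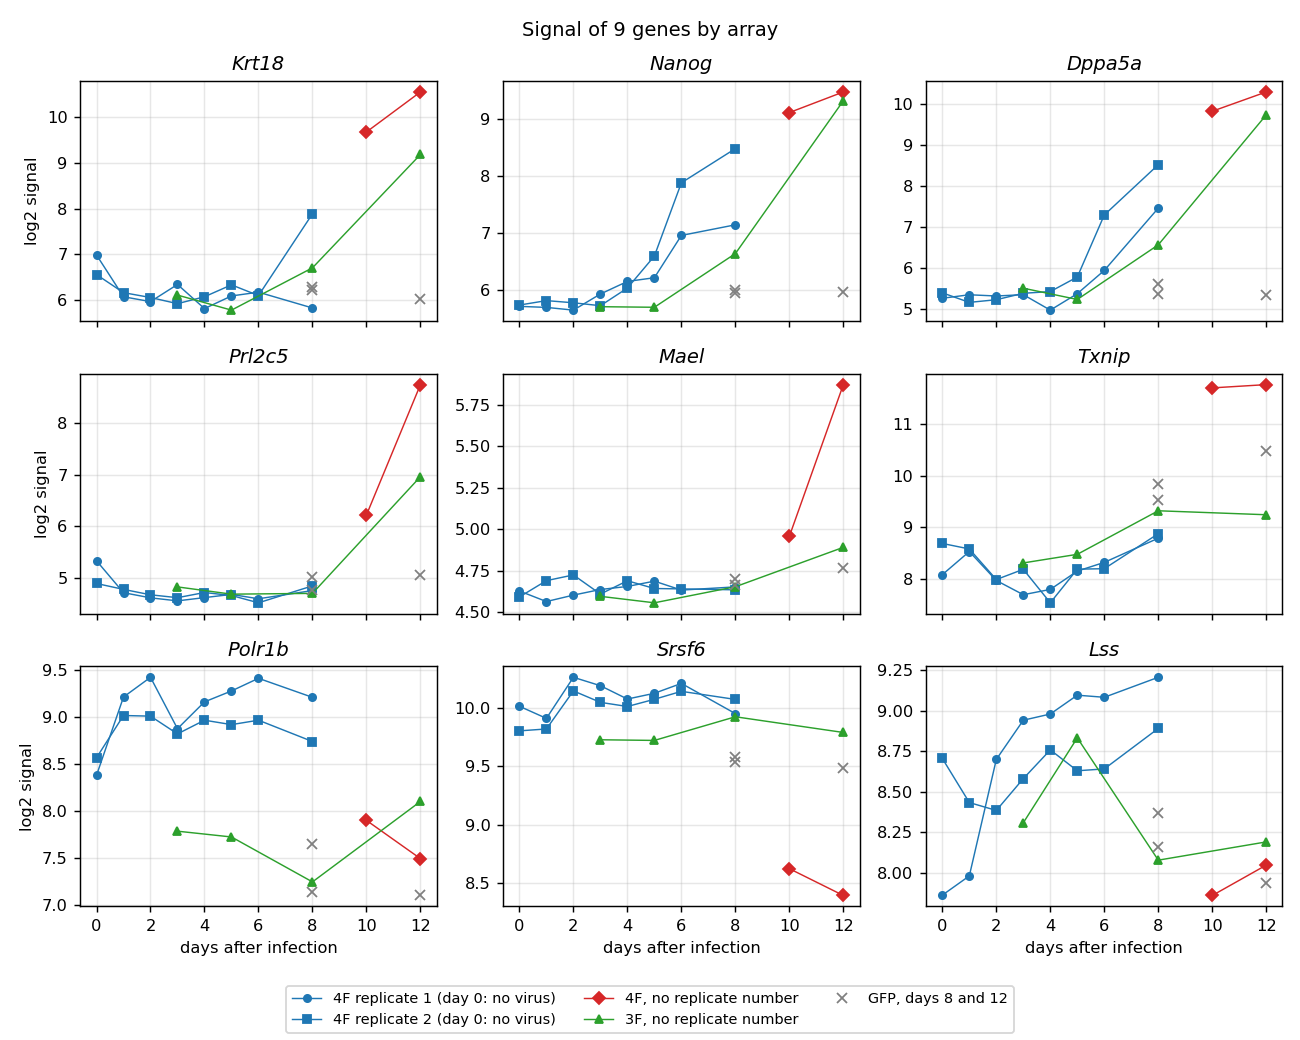
Log2 signal (y axis, scaled per gene) against days after infection for 9 genes, with the numbered 4F replicates as 2 lines, the unnumbered 4F arrays of days 10 and 12, the 3F arrays and the GFP arrays of days 8 and 12. Prl2c5 and Mael stay flat in 4F up to day 8 and stand apart on day 12 at 8.76 and 5.87, while Srsf6 lies below all other plotted arrays on days 10 and 12.

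A part of the genes of the placenta rose late. In a family chosen after its values were seen, the prolactins, 7 of 20 measured genes rose and the other 13 did not pass. Of all probe sets, 3.82% rose. Prl2c5, a prolactin-related hormone of trophoblast giant cells, read 4.75 and 4.84 on day 8, 6.22 on day 10 and 8.76 on day 12. Both day 8 arrays lay near the low end of the table, whose lowest value is 4.27, and day 12 lay 2.54 above day 10. Its rise was 2.69 ± 0.13 (adjusted p = 5.62e-08) and exceeded the GFP change by 3.79 ± 0.22 (adjusted p = 1.06e-06). Near-identical paralogs of Prl2c5 may share its probes. Prl2a1, of the same family, read 4.98, 5.69, 6.95 and 8.42. It rose by 2.35 ± 0.16 and lay 3.00 ± 0.27 above the GFP change.

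The remaining 5 prolactins that rose did so mainly on day 12: Prl3d3 read 4.65 and 4.63, then 4.87 and 6.09, and Prl4a1 read 5.14 and 5.13, then 5.21 and 6.24. All 7 were also called above the GFP change. In the list of trophectoderm and primitive endoderm genes, 4 of 22 rose and 1 fell, against 3.82% of all probe sets in each direction. Plac1, a placenta-enriched membrane protein, rose by 1.90 (5.18, 6.07, 6.99 and 8.07). The keratin Krt7 of trophoblast rose by 1.82, the trophectoderm transcription factor Tfap2c by 1.08 and Ascl2 by 0.43, while Cited1 fell by 1.10. Krt7 read 7.22 and 7.41 in the day 0 fibroblasts, 6.05 and 6.86 on day 8, and 7.80 and 8.75 later. Cdx2 (5.61, 5.76, 5.96 and 5.69), Eomes (5.38, 5.37, 5.47 and 5.47) and Elf5 (5.08, 5.14, 5.30 and 5.30) did not pass. In 3F, Prl2c5 read 4.69 on day 8 and 6.96 on day 12. Without day 12, 2 prolactins passed.

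Promoter stretches with a known motif are printed for Prl2a1 and Txnip, both among the 12 largest rises, and for Arrdc4, looked up later. Each is the run of 250 bases before the RefSeq start of the gene, in mouse build GRCm38.p6, and 10 of the 12 genes with the largest rises had such a stretch. The stretch of Prl2a1 lies at chr13:27801405-27801654 on the + strand. Capitals mark the octamer ATTTGCAT, the DNA element read by POU factors such as Oct4, searched on both strands. It occurs in 1.6% of all 32851 promoter stretches of this length, and in 1 of those 10 genes. A match describes the letters and is no evidence of binding.
Prl2a1: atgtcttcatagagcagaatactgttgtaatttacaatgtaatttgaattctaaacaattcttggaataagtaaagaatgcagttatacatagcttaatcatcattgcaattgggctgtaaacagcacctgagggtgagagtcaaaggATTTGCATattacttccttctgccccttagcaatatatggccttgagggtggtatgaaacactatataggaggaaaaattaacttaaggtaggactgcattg

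Among the few probe sets that differed by at least 1 log2 unit, day 12 lay mostly above day 10. Over all probe sets day 12 lay above day 10 in 49.2%. With 1 array on each side this was described without a test. In 17 probe sets day 12 was at least 1 log2 unit higher (0.078%) and in 2 at least 1 unit lower (0.00918%). Of these 19 probe sets, 4 belong to prolactins. The others include the steroid-converting reductase Akr1c14 (6.52 on day 10 and 7.93 on day 12), the fatty acid binding protein Fabp3 (8.10 and 9.30), the fatty acid transporter Cd36 (6.84 and 7.89), the serpin Serpinb9e (5.74 and 7.33) and Plac1. The elastic fibre protein Fbn2 was lower, at 8.52 and 7.36. Across day 8 it had read 10.14 and 8.92, and it was among the largest falls (-1.58 ± 0.44, adjusted p = 0.0416). It did not pass without day 8 replicate 1 (-0.97, adjusted p = 0.44) or without day 12 (adjusted p = 0.48), and just missed under quantile normalization (adjusted p = 0.051).

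Some germ cell genes rose at low signal. Of 29 measured members 8 rose, against 3.82% of all probe sets, and none fell, with a median difference of 0.14. The synaptonemal complex gene Sycp3 read 4.46 and 4.66 on day 8, 5.01 on day 10 and 6.02 on day 12. The piRNA pathway gene Mael read 4.65, 4.63, 4.96 and 5.87. For both the day 8 arrays agree closely and day 12 stands apart, and both exceeded the GFP change, Sycp3 by 1.46 ± 0.12 (adjusted p = 5.95e-05) and Mael by 1.14 ± 0.11 (adjusted p = 0.000148). The homeobox gene Rhox9 rose by 1.03 (5.65, 6.48, 6.65 and 7.55) and the testis-expressed ribosomal protein gene Rpl10l by 0.91. Without day 8 replicate 1, 3 germ cell genes passed, and without day 12, 1 did.

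Txnip combined a large rise with closely matching arrays on each side. It encodes the thioredoxin-interacting protein, an arrestin that restrains glucose uptake and is a known target of glucose-sensing transcription factors. Its signal was 8.79 and 8.88 on day 8, 11.69 on day 10 and 11.75 on day 12. The gap between the groups is 2.81, the widest of all risen probe sets. The rise was 2.88 ± 0.19 (adjusted p = 1.45e-06). In GFP cells Txnip read 9.54 and 9.84 on day 8 and 10.48 on day 12, and the 4F change exceeded the GFP change by 2.12 ± 0.33 (adjusted p = 0.00565). In 3F it read 9.32 on day 8 and 9.24 on day 12, in arrays of the same unnumbered set.

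Arrdc4, a related arrestin under the same control, was looked up after these values were seen. It read 6.39 and 7.70, then 8.12 and 8.47, a rise of 1.25 ± 0.34 (adjusted p = 0.0363) that did not pass without day 8 replicate 1 (0.60, adjusted p = 0.45), without day 10 or without day 12, with GFP day 12 also above both GFP day 8 arrays (8.69 against 7.51 and 8.00). The Txnip stretch lies at chr3:96557707-96557956 on the + strand, and capitals mark 2 copies of CACGNG set 5 bases apart as in a carbohydrate response element, a pattern that ends 69 bases before the start. That pattern, searched on both strands, is present in 15 of 32851 promoter stretches (0.0457%). The Arrdc4 stretch lies at chr7:68749239-68749488 on the - strand, and capitals mark a full E-box, CACGTG. The E-box is present in 6.02% of all stretches, and in 0 of the 10 stretches of the genes with the largest rises.
Txnip: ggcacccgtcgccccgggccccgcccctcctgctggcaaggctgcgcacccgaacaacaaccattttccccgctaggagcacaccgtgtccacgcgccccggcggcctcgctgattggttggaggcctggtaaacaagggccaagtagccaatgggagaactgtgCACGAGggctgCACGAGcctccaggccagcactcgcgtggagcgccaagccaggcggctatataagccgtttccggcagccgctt
Arrdc4: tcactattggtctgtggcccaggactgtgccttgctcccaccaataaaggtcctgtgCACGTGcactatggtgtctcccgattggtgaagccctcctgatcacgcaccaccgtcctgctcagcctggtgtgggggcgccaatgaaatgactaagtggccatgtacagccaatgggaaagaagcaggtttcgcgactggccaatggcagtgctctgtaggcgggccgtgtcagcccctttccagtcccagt

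Other genes of glucose metabolism moved less. Of 21 glycolysis genes 4 rose, against 3.82% of all probe sets, and none fell, with a median difference of 0.28. Both glucose transporters of the list rose, Slc2a3 from 9.04 and 10.47 to 11.51 and 11.55 (1.77 ± 0.33) and Slc2a1 from 10.36 and 11.04 to 11.82 and 11.91 (1.17 ± 0.30). The enzymes Aldoa and Pfkm rose by 0.50 and 0.48. Without day 8 replicate 1, 1 of the 21 passed, without day 10, 2 did, and without day 12, 1 did. None of 41 oxidative phosphorylation genes passed, with a median of -0.27. Both later arrays lay below both day 8 arrays for 24 of them, against 24.2% of all probe sets. With the block 8 of these genes were called, with RNA amount as a term 3 were, and without day 8 replicate 2, 2 were.

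Genes for making ribosomes fell as broadly as epithelial genes rose. Of 51 nucleolar and MYC target genes 28 fell, against 3.82% of all probe sets, and none rose, with a median difference of -0.67, and both later arrays lay below both day 8 arrays for 44, against 24.2% of all probe sets. Polr1b, a core subunit of RNA polymerase I, read 9.21 and 8.74 on day 8, 7.90 on day 10 and 7.49 on day 12. The groups do not overlap, and the fall was -1.28 ± 0.22 (adjusted p = 0.00262). Tsr1, a small-subunit assembly factor, read 9.55, 10.03, 8.58 and 8.62, a fall of -1.19 ± 0.14 (adjusted p = 0.000133). It was 1 of 2 members called below the GFP change (-1.20 ± 0.23, adjusted p = 0.0298).

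The falls covered successive steps of the pathway. The nucleolar phosphoprotein Nolc1 fell by 1.17 on the log2 scale, the large-subunit processing factor Bop1 by 1.12, the nucleolar helicase Ddx21 by 1.12, and the small nucleolar RNP proteins Nop58 and Nop56 by 1.03 and 0.86. Nop2, Rrs1, Mrto4 and Ncl also fell. The cytosolic ribosomal proteins themselves differed little, with 1 of 31 lower (Rpl30, -0.84), against 3.82% of all probe sets, and a median of 0.01. Without day 8 replicate 1 the count of fallen nucleolar genes was 20, without day 10 it was 21 and without day 12 it was 15. The median of this list was -0.16 in GFP from day 8 to day 12 and 0.58 in 3F between the same days. For Polr1b the 3F arrays read 7.24 and 8.10, so that 3F day 12 lay above 4F day 12.

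**Figure D3:**
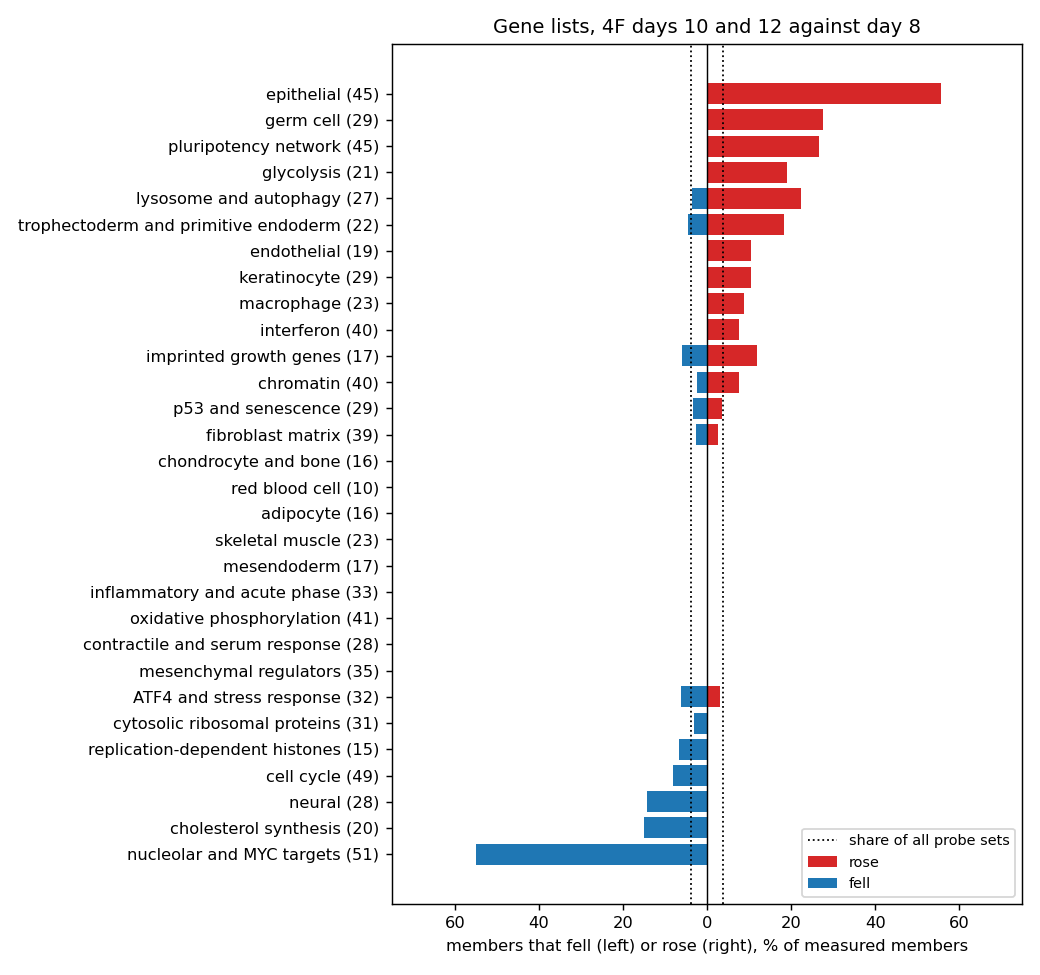
Share of measured members (number in brackets) of each gene list that rose (right) or fell (left) in 4F on days 10 and 12 against day 8, in percent, with dotted lines at the 3.82% of all probe sets called in each direction. The epithelial list reaches furthest to the right with 25 of 45 and the nucleolar and MYC target list furthest to the left with 28 of 51.

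Some RNA processing genes fell. These families were chosen after their values were seen. Of 10 SR splicing factors, the proteins that define exons, 4 fell, against 3.82% of all probe sets, and none rose, with a median of -0.59. Srsf6 read 9.95 and 10.07 on day 8, 8.62 on day 10 and 8.39 on day 12. The earlier 4F arrays, the 4 arrays of 3F and the GFP arrays of days 8 and 12 all lay above this later pair. The difference was -1.50 ± 0.08 (adjusted p = 1.78e-07), and its difference from the GFP change was -1.54 ± 0.14 (adjusted p = 9.19e-05). Srsf1 (-1.36), Srsf2 (-1.27) and Srsf3 (-0.87) fell as well.

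Leaving out provisional and small RNA names, the largest fall among the probe sets that stand for genes was that of Sfpq. This paraspeckle and splicing protein read 10.80 and 10.75, then 9.28 and 8.53 (-1.87 ± 0.20, adjusted p = 8.28e-05). GFP cells also read lower on day 12 (8.95 against 9.83 and 9.63), and the difference of the changes did not pass (adjusted p = 0.079). Of 17 hnRNP genes, which package nascent transcripts, 9 fell, against 3.82% of all probe sets, and none rose (median -0.48). The largest of these falls was that of Hnrnpm (11.19, 11.17, 10.61 and 10.34). The RNA helicase Dhx9 fell by 1.34. Rbmx, an hnRNP-like protein on the X chromosome, read 9.61 and 8.61, then 7.52 and 7.49, and fell by 1.60. Rbmx did not pass without day 8 replicate 1 (-1.10, adjusted p = 0.06). In 3F the medians from day 8 to day 12 were 0.31 for the SR factors and 0.50 for the hnRNPs. Without day 8 replicate 1, 5 SR and 8 hnRNP genes passed. Small nucleolar RNA probe sets fell in 11 of 51, against 3.82% of all probe sets. Their median difference was -0.52, and -0.29 without day 8 replicate 1. Their signal cannot be told apart from that of the host genes' introns.

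The remaining large falls were of mixed function. Fabp7, a fatty acid binding protein of neural progenitors, went from 6.94 and 8.16 to 6.16 and 5.44 (-1.75 ± 0.35), and did not pass without day 12 (-1.39, adjusted p = 0.12). The neuronal RNA-binding protein Elavl2 (8.75, 8.21, 7.04 and 6.62) fell by 1.65, with a difference from the GFP change of -1.92, and GFP cells stayed between 5.63 and 5.75. In all, 4 of 28 neural genes fell, against 3.82% of all probe sets, and none rose. The count was 1 without day 8 replicate 1, 2 without day 10 and 0 without day 12. The others among the 12 largest falls were the phosphatase regulator Ppp1r10, the bHLH factor Msc, the histone reader Phf20l1, the haem exporter Flvcr1, the histone reader family member Spin4 and the fatty acid synthase Fasn. Fasn did not pass without day 8 replicate 1, without day 10 or without day 12.

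Lipid genes other than Fasn fell in part. Of 20 cholesterol synthesis genes 3 fell, against 3.82% of all probe sets, and none rose (median -0.54): the cyclase Lss (9.21, 8.89, 7.86 and 8.05), the epoxidase Sqle (9.75, 9.64, 8.51 and 8.84) and the sterol carrier Stard4. The count was 7 with the replicate block and 1 without day 8 replicate 1, without day 10 or without day 12. Lysosome and autophagy genes went the other way, with 6 of 27 higher, 1 lower and a median of 0.47, against 3.82% of all probe sets in each direction. The cholesterol exporter of the lysosome Npc1 read 7.64 and 7.70, then 8.71 and 8.56, a rise of 0.97 ± 0.14, and the autophagy genes Wipi1 and Gabarapl1 rose by 1.02 and 0.94. With the block 12 rose, and without day 8 replicate 1, 3 did. In 3F this list had a median of -0.19, in GFP 0.12.

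**Figure D4:**
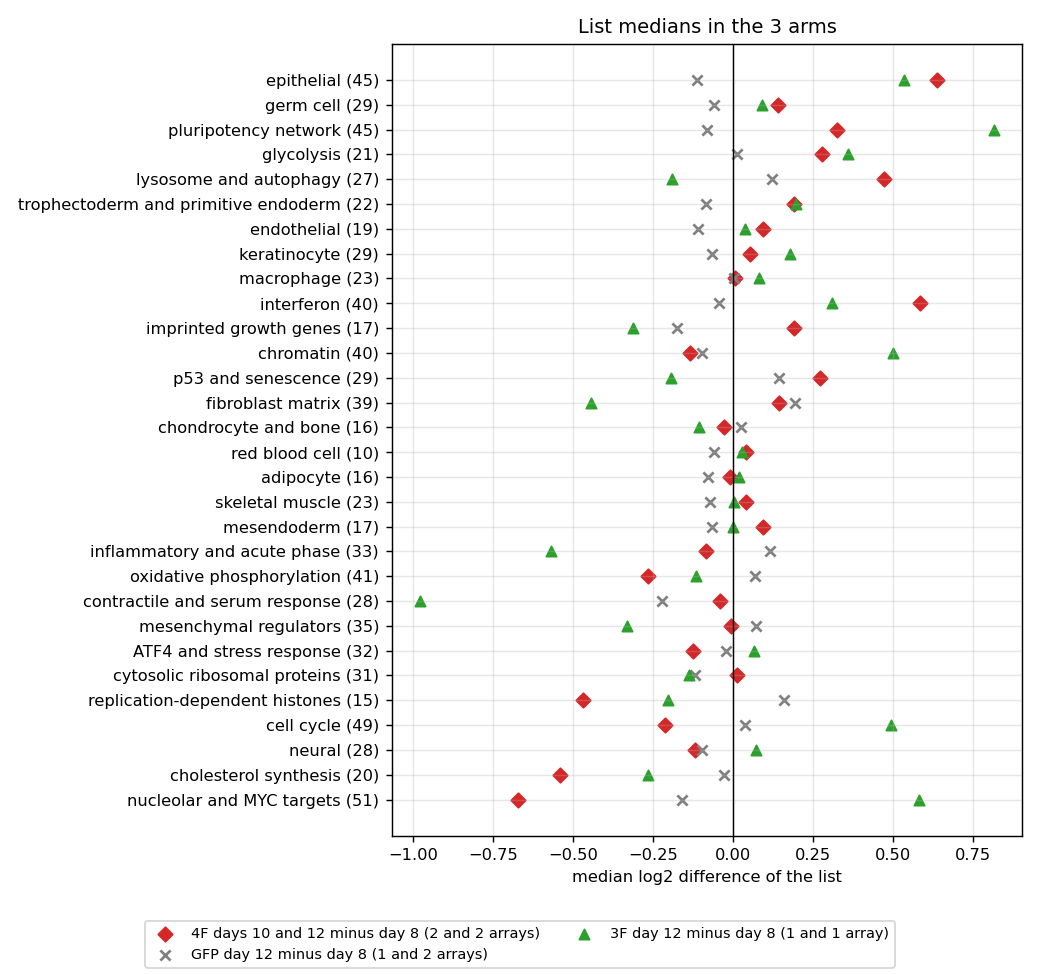
Median log2 difference (x axis) of each list in 4F (days 10 and 12 minus day 8), GFP (day 12 minus day 8) and 3F (day 12 minus day 8), with the number of measured genes in brackets. The nucleolar and MYC target list lies at -0.67 in 4F and at 0.58 in 3F, and the epithelial list lies at 0.64 in 4F and -0.11 in GFP.

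Some cell division genes fell. Of 49 cell cycle genes 4 fell, against 3.82% of all probe sets, and none rose (median -0.21). They were the S-phase cyclin Ccne2 (6.90, 6.42, 5.22 and 5.53), the thymidylate synthase Tyms, the replication clamp Pcna and the licensing factor Cdc6. Without day 8 replicate 1 none of the 49 passed, and without day 10 or without day 12, 1 did. Cdkn1b, the p27 inhibitor of cyclin-dependent kinases, rose from 8.80 and 8.29 to 9.53 and 9.50 (0.97 ± 0.14, adjusted p = 0.000819). Of 29 p53 and senescence genes it alone rose. Sesn2, a stress-induced regulator of growth signalling, alone fell (8.04, 9.01, 7.56 and 7.72, a difference of -0.88, adjusted p = 0.0481). These shares are close to the 3.82% of all probe sets in each direction, and with the block 5 members were called.

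The level of interferon-responsive genes turned on the day 8 arrays. The median of 40 such genes was 0.59 against both day 8 arrays and -0.06 against replicate 2 alone. Of these, 3 rose, against 3.82% of all probe sets, and none fell: Ifi27l2a (5.39, 6.53, 7.59 and 8.07), the antiviral synthetase Oas3 and Trim30a. Without replicate 1, 1 of the 40 passed. None of 33 inflammatory genes passed (2 without day 8 replicate 2).

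Clock-output genes were looked at after their values had been seen. Dbp, a transcription factor with a daily rhythm, read 7.69 and 7.68 on day 8, 9.43 on day 10 and 9.92 on day 12, a rise of 1.99 ± 0.21 (adjusted p = 6.83e-05). GFP cells read 8.19 and 7.80 on day 8 and 9.12 on day 12, and the difference between the arms did not pass (adjusted p = 0.22). Nr1d1, the REV-ERB alpha repressor, rose by 1.32 but did not pass when any 1 of the 4 arrays was left out (adjusted p = 0.052 to 0.078), with GFP day 12 as high as the later 4F arrays (8.77 against 8.81 and 8.77). Per1, a core clock gene, rose by 0.77.

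Markers of cells other than fibroblasts and their reprogrammed progeny rose in part. Of 23 macrophage genes, Cd68 (6.12, 8.01, 8.89 and 9.17) and Csf1r (5.36, 5.42, 6.02 and 6.37) rose. Laptm5 (7.55, 9.16, 9.25 and 9.22) did not pass. The defining genes Ptprc, Adgre1 and Cybb stayed between 4.83 and 5.14 in all 4 arrays. Without day 12 none of the 23 passed. The mean signal of the macrophage list was 5.41 and 5.58 on day 8 and 5.70 and 5.62 later. Of 19 endothelial genes, Pecam1 (5.33, 5.40, 5.75 and 6.30) and Cdh5 (5.35, 5.38, 5.44 and 6.24) rose, and both also exceeded the GFP change. Without day 12, 1 endothelial gene passed. The mean signal of the endothelial list was 6.04 and 6.08 on day 8 and 6.22 and 6.24 later. Of 29 keratinocyte genes 3 rose, Sprr1a (1.72), Krt14 (1.11) and Klk10 (0.74), and without day 12 none did. Of all probe sets, 3.82% rose. None of 17 mesendoderm or 10 red blood cell genes passed. The part of such cells in the results was not tested.

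Klk7, a secreted serine protease, and Pla2g7, the platelet-activating factor hydrolase, completed the largest rises. Klk7 read 6.04 and 6.93, then 8.54 and 9.06, a rise of 2.32 ± 0.19 that exceeded the GFP change by 2.58 ± 0.33. Pla2g7 read 5.87 and 7.88, then 9.17 and 10.00 (2.71 ± 0.75, adjusted p = 0.0391), and lost its call without day 8 replicate 1 (1.71, adjusted p = 0.41), without day 10 or without day 12. Of 17 imprinted growth genes, Igf2 (0.97) and Phlda2 (0.72) rose and Nnat (-0.85) fell, against 3.82% of all probe sets in each direction. The count was 1 without day 8 replicate 1 and 0 without day 12. Of 40 chromatin genes 3 rose and 1 fell, against 3.82% of all probe sets in each direction. Of 32 stress response genes 1 rose and 2 fell, among the latter the heat shock protein Hsph1 (9.83, 9.50, 8.54 and 8.27). With the block, 9 chromatin and 6 stress response genes were called. Of 15 replication-dependent histones 1 fell, but their median difference was -0.47. With the block 7 of these histones were called, and with RNA amount as a term 4 were. At the threshold, Vamp4 was the last gene called (0.75, adjusted p = 0.04993) and Gpr155 the first not called (-0.60, adjusted p = 0.05).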

How the data were processed

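Expression was measured on Affymetrix single-colour mouse arrays labelled from total RNA, per the labels. The authors deposited log2 signals for each probe set and array. How they normalized them is not given in the sources used. Column medians lay between 6.04 and 6.17, and the values were used as deposited. Of 28853 probe sets, 21789 have a single gene symbol in the platform annotation, 1621 have several and 5443 have no symbol, and 21698 matched RefSeq by Entrez ID. For 999 genes with several rows, the row with the highest mean over 31 arrays stands for the gene in lists and named genes.

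A limma 3.58.1 model in R 4.3.3, with 1 mean for each of 19 groups (12 residual and 2.67 prior degrees of freedom), gave each contrast, and p-values were adjusted over the 21789 rows. Tested on simulated data, the day 8 contrast recovered 82% of 1-unit and 98% of 2-unit changes among 100 each, with 12 false calls, and the difference from GFP recovered 44% and 85%, with 8. Replicate numbers were taken as pairing arrays because the labels give replicate 1 its own labelling amount. Replicate deviations of group pairs correlated at 0.0849 to 0.675 (66 pairs, 65 above 0.1). The block term sets unnumbered arrays midway between replicates 1 and 2.

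Genes were named by a rule. It took the 4 delivered factors, the 12 called genes that rose most and the 12 that fell most. The 5 largest differences each way from GFP were added. These rankings left out provisional, clone-type, olfactory and vomeronasal receptor, microRNA and small nucleolar RNA names. Up to 4 called members of each list completed the rule. A further 39 genes, mostly members of lists, and the pair nearest the threshold are named outside it and were chosen after their values were seen. The comparison, the lists and the members were chosen with earlier results of these data known. Alternatives were the block, the RNA amount, a variance trend, 1 row per gene, a signal minimum, quantile normalization, median centring and leaving out single arrays. Promoter stretches came from RefSeq.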

Additional observations from a re-analysis of the deposited data

Results flagged for a closer look

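For 31 of the genes named above, the change from day 8 to day 12 differed between the 4F and GFP arms by the limma test of that difference itself, with 1 array per arm on day 12. Of all 21789 probe sets, 133 were called (0.61%). Genes were in part named for this same difference or after their values were seen, so the count of 31 is not set against that share. Higher in 4F than the GFP change were Krt18 (3.92), Prl2c5 (3.79), Prl2a1 (3.0), Fabp3 (2.76), Plac1 (2.75), Akr1c14 (2.67), Klk7 (2.58), Krt7 (2.4), Txnip (2.12), Ifi27l2a (2.06), Spint1 (1.98), Serpinb9e (1.92), Krt14 (1.78), Prl3d3 (1.57), Sycp3 (1.46), Elf3 (1.41), Ap1m2 (1.38), Mael (1.14), Prl4a1 (1.11), Pecam1 (1.11) and Cdh5 (0.98). Lower were Kera (-2.55), Cpxm2 (-2.27), Elavl2 (-1.92), Phf20l1 (-1.65), Srsf6 (-1.54), Dhx9 (-1.37), Hsph1 (-1.33), Tsr1 (-1.2), Srsf1 (-1.17) and Srsf2 (-1.13). All these values are log2 differences of differences. Kera and Cpxm2 did not pass between the days in 4F (-0.03 and -0.24 for days 10 and 12 against day 8), while they rose in GFP (2.44 and 2.01). No group held enough arrays for a test of single outlying arrays.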

How the results depend on the processing

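For the 4F comparison, 1664 probe sets called became 3133 with the replicate block, 0 in the fit to the 4 arrays alone, and 77 under the rule of at least 1 log2 unit beyond without a test. Leaving out single arrays gave 406 to 2285. For the difference from GFP, 133 became 357 with the replicate block, 357 with RNA amount as a term and 15 among rows with mean signal of at least 7, and 113 to 459 without single arrays of day 8. For GFP alone, 8 became 12 with the block, 14 with RNA amount, 17 with a variance trend, 2 with the signal minimum, 13 with quantile normalization, and 13 to 89 without single arrays. Leaving out either day 12 array leaves no difference from GFP to fit. Other settings kept each count within 1.5 times. Median centring, which shifted all probe sets by -0.04, left 40.1% of the 4F calls higher, where the deposited values gave equal numbers each way. Of 86 genes named by the rule, the block changed no call or sign, while 35 lost their call without day 8 replicate 1, 10 without replicate 2, 20 without day 10, 47 without day 12 and 83 with the 4 arrays alone. Of 33 genes named outside it whose difference is used, these numbers were 11, 2, 5, 17 and 32, and the block changed none. Signs turned for Klf4 (-0.016 to 0.822 without single day 8 arrays, the lower without replicate 1) and Myc (-0.735 to 0.543 without single arrays, with 0.071 without day 10), neither called. The causes were not tested. The number of arrays limits precision, and low signals near the array's floor understate change.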
